A study of Homo sapiens with 35 samples.

Results

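The depletion of ZMYND8 in HEK293T, a cell line established from human embryonic kidney, was described across all genes that passed a count filter, in 4 of the 35 libraries of a series on the Integrator complex and its partners. The 4 libraries were 2 with a siPOOL against ZMYND8 and 2 with a control siPOOL labelled for ZMYND8, both numbered 3 and 4 and both kept with glucose; a siPOOL is a mixture of many short interfering RNAs directed at 1 target. The pools were given at 5 nM in repeated transfections and depletion lasted 72 h; stranded libraries were made from total RNA freed of ribosomal RNA. Of 60665 genes in the table, 19275 passed the filter and were tested. The other groups used here were HEK293T cells under the same protocol: siPOOLs against INTS13 and ZNF655 (n = 2 each) with 4 second-set controls, and a siPOOL against ZNF687 (n = 2) with 3 first-set controls. Depletions of HDGF (second set) and of TSPYL2, ZEB1, ZNF608 and ZNF609 (first set), 2 libraries each, are used at the end. Libraries starved of glucose for 24 h (2 with a siPOOL against INTS13, 2 against HDGF and 4 controls) entered no comparison, only the count filter and the estimate of spread behind the p-values. A single cell line was used, and the labels do not say that replicates were separate cultures, so the p-values measure the spread between these libraries.

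ZMYND8 is a chromatin reader. Its PHD finger, bromodomain and PWWP domain bind modified histone tails, and its MYND domain and other regions recruit repressor complexes, including the nucleosome remodelling and deacetylase complex NuRD. It also forms a complex with the zinc finger proteins ZNF687, ZNF592 and ZNF532, and it is known for roles at enhancers and at DNA breaks. In the series it was studied as a partner of Integrator, the complex that cleaves nascent RNA and ends transcription early at many genes.

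The ZMYND8 libraries held 24390261 and 21588039 counts and their controls 27208838 and 17864615, within the series' range of 16766673 to 50790278. No count fell on any of the 37 mitochondrial genes of the table, in any library. Kidney and neuronal markers typical of HEK293T cells were present: 16 of 16 passed the filter, and none was called. Of 28 markers of blood, liver, muscle, skin and other cell types, 17 were below the filter, 10 of these with no count in the 4 libraries (PTPRC, CD3E, HBB and INS among them). The summed level of the other 11 was 19.0 and 17.6 CPM in the controls and 22.7 and 23.1 in the depleted cells; its part in the results was not tested. CPM are counts divided by the TMM-scaled library size and multiplied up to a fixed depth. The controls labelled for ZMYND8 differed from the 4 second-set controls at 1477 genes (7.66% of those tested). The neuronal, p53, stress response and chaperone lists are therefore also given against the second set. Other lists with calls are not. In bulk RNA, fewer cells of a kind and less RNA per cell cannot be told apart.

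ZMYND8 itself (ENSG00000101040, hg38 chromosome 20, 47209214 to 47356889, minus strand) stood at 45.8 and 44.9 CPM in the controls and at 23.1 and 24.1 CPM in the depleted libraries. The mean was 52.1% of control, with a log2 fold change of -0.94 ± 0.19 (SE; adjusted p = 0.0114). Groups did not overlap. The estimate moved little when any library was left out, but the call was lost each time: the adjusted p was 0.169 without ZMYND8 library 3, 0.151 without ZMYND8 library 4, 0.0996 without control 3 and 0.119 without control 4. It was 0.0514 when the glucose-starved libraries did not contribute to the estimate of spread. In other fits with all 4 libraries the adjusted p was 2.84e-08 with the spread estimated from these 4 alone, 6.81e-07 with no filter and 0.000195 with DESeq2. Against the second-set controls the log2 fold change was -0.91 (adjusted p = 0.00062). Partners of ZMYND8 were not called. ZNF687 measured 66.2 and 68.0 CPM in the controls and 65.2 and 75 after depletion, ZNF592 51.4 and 54.9 against 54.6 and 61.9, and ZNF532 18.3 and 17.5 against 14.6 and 16. None of the 19 tested genes for partners and related histone readers was called, and their median log2 fold change was -0.0041.

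After ZMYND8 depletion, 144 genes were called at an adjusted p under 0.05, 86 higher and 58 lower (0.747%, 0.446% and 0.301% of the genes tested). An unadjusted p under 0.05 was found for 1855 genes. The changes were mostly small: the median size of a called change was 0.62 on the log2 scale, and 19 genes rose and 9 fell at least 2-fold. In all 144 the depleted and control libraries did not overlap, which across all tested genes held for 27.5% with the depleted libraries higher and for 22.9% with them lower. Protein-coding genes made up 92.4% of the calls and 71.4% of the genes tested. The calls included 7 higher members of a neuronal list, 5 higher p53 targets, and 3 lower genes of the integrated stress response. With DESeq2 there were 326 calls, 155 higher and 171 lower. The number of calls depended on single libraries: it was 41 without ZMYND8 library 3, 34 without ZMYND8 library 4, 58 without control 3 and 21 without control 4, and 1553 when the spread was estimated from the 4 libraries alone. In all, 18 genes were called in each of these leave-out fits, 11 higher (among them BRI3BP, CHGB, GNG4, INPP5D, NPTX2, OLFM1, SNHG16, SYP, TMEM64 and TNFRSF10B) and 7 lower (APOLD1, GPCPD1, PIGS, RAB6A, SUDS3, TM7SF2 and TMCC1-AS1), and 126 lost their call in at least 1 of them.

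**Figure D1:**
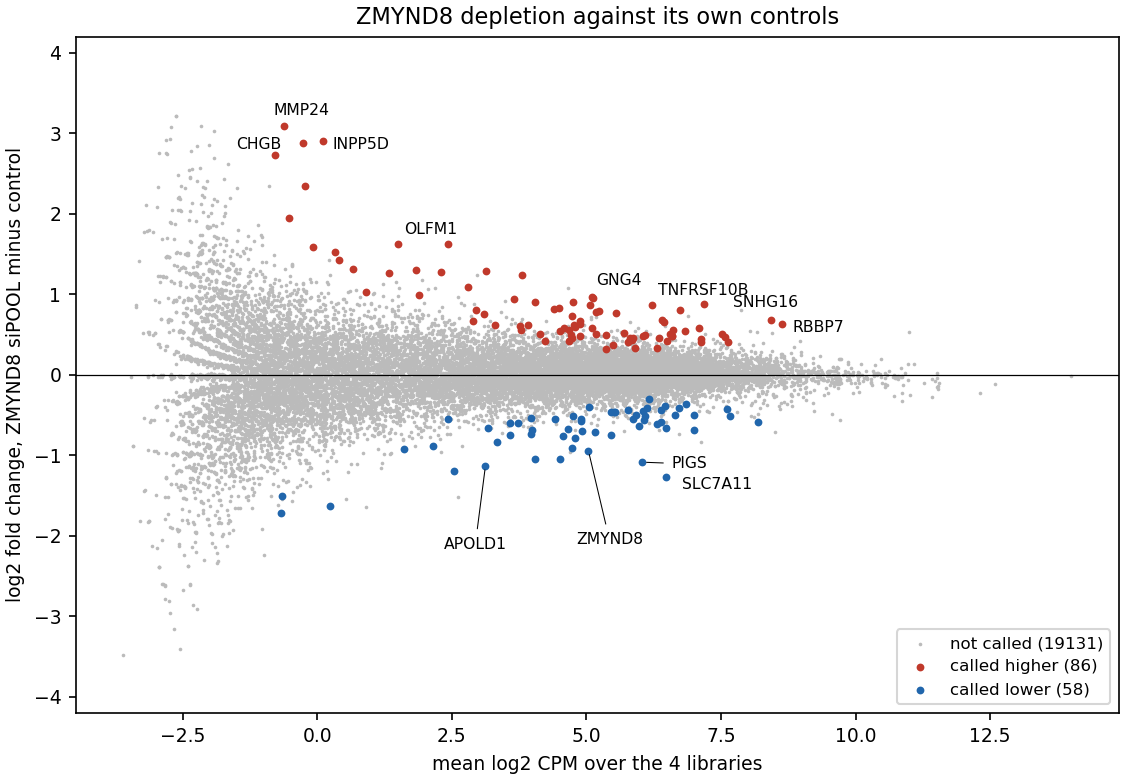
Each point is 1 of the 19275 tested genes, with its mean log2 CPM over the 4 libraries on the x axis and its log2 fold change (ZMYND8 siPOOL minus control) on the y axis; 6 genes that were not called lie beyond the y axis. The 86 genes called higher (red) and 58 called lower (blue) lie away from 0 on either side, PIGS and SLC7A11 among the lower ones.

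Of 34 neuronal and secretory granule genes tested, 7 rose. SYP encodes synaptophysin, a membrane protein of synaptic vesicles; it measured 20.6 and 18.7 CPM in the controls and 37.4 and 36.5 after depletion, a log2 fold change of 0.91 ± 0.094 (adjusted p = 2.39e-06). GNG4, a G protein gamma subunit found mainly in brain, went from 26.9 and 22.6 to 45.2 and 51.5 CPM (0.96 ± 0.13, adjusted p = 0.000108). INA, the neuronal intermediate filament alpha-internexin, went from 28.3 and 26.6 to 48.1 and 46.3 CPM (0.78 ± 0.17). STMN3, a stathmin that binds tubulin in neurons, went from 29.1 and 26.7 to 41.1 and 42.5 CPM (0.58 ± 0.13). In each of these genes both depleted libraries lay above both controls.

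The 3 largest of these rises were in genes at low levels in the controls. CHGB, chromogranin B of dense-core granules, had 6 and 6 counts in the controls (0.218 and 0.337 CPM) and 53 and 39 in the depleted libraries (2.16 and 1.80 CPM), a log2 fold change of 2.88 ± 0.38. SCG3, secretogranin III of the same granules, went from 0.399 and 0.224 to 1.47 and 1.06 CPM (1.95 ± 0.43). CPLX1, the complexin that clamps vesicle fusion, went from 3.91 and 2.19 to 9.67 and 9.55 CPM (1.62 ± 0.37). These 7 genes were the called members of a list of 45 neuronal and granule genes, of which 34 were tested; 7 were called higher (set against 0.446% of all genes), 0 lower, and the median was 0.28 against 0.012 for all tested genes. Signs were mixed: 12 of the 34 had a negative sign, SYT11 (a synaptotagmin) at -1.30 ± 0.33 among them (adjusted p = 0.0631), and genes such as SNAP25, DCX and ELAVL4 stayed below the filter. Without any 1 of the 4 libraries, 3 of the 7 calls were left (SYP, GNG4 and CHGB in each case).

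Some called genes outside that list are also known from neurons; they were picked out after their values were seen and form no tested group. OLFM1, the secreted glycoprotein noelin, went from 1.96 and 1.18 to 4.90 and 5.08 CPM (1.62 ± 0.24, adjusted p = 0.000387). NPTX2, a pentraxin of excitatory synapses, went from 15.5 and 16.2 to 28.4 and 27.2 CPM (0.81 ± 0.11). GABRD, a GABA receptor subunit, went from 1.81 and 1.35 to 4.41 and 3.28 CPM, and SEMA6B, a transmembrane semaphorin, from 3.33 and 2.92 to 7.67 and 7.52 CPM; both lost their call without any 1 of the 4 libraries. Called genes with neuronal roles were also lower: TUBB2B, a beta-tubulin, went from 65.9 and 75.6 to 48.2 and 48.8 CPM, and MAP3K12 and SEMA3C are described below. The control level of some of these genes differed between sets. OLFM1 had a mean of 0.662 CPM in the second-set controls, and SYP and GNG4 14.1 and 14.6 CPM, each below the controls labelled for ZMYND8. Against the second-set controls, where 13.8% of all genes were called (7.98% higher and 5.85% lower), 15 of the 34 listed genes were called higher and 2 lower, with a median of 0.57. The summed level of the 34 was 406 and 393 CPM in the controls labelled for ZMYND8, 514 and 534 in the depleted libraries, 295 to 339 in the second-set controls and 436 to 489 in the first-set controls. Both other sets of controls were below the depleted libraries, one below and one above the controls labelled for ZMYND8.

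**Figure D2:**
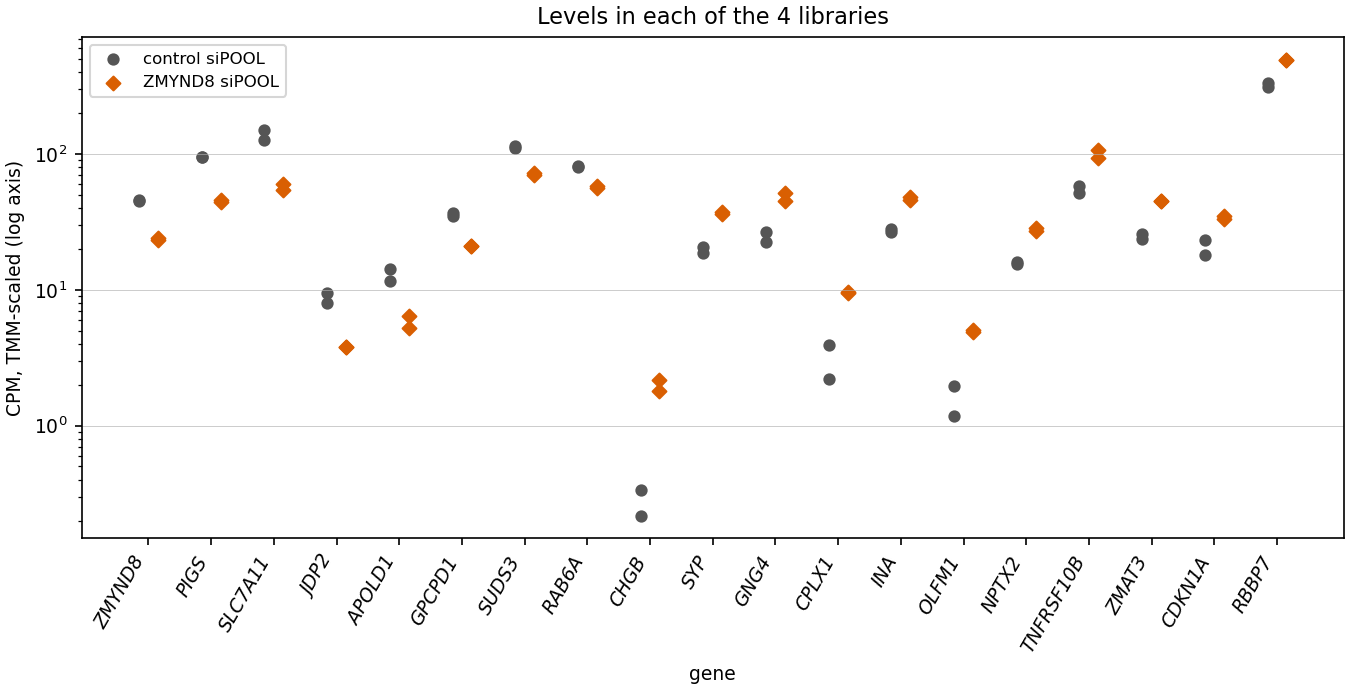
Levels of 19 genes in each of the 4 libraries, in TMM-scaled CPM on a log axis; grey circles are the 2 control libraries and orange diamonds the 2 ZMYND8 siPOOL libraries. The first 8 genes are lower and the other 11 higher after depletion, and the groups do not overlap in any of the 19.

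Targets of p53, the transcription factor that responds to DNA damage and other stress, rose at 5 of 28 genes. TNFRSF10B, the death receptor DR5 (hg38 chromosome 8, 23020133 to 23069031), measured 52.1 and 58.5 CPM in the controls and 94.2 and 107 after depletion (0.87 ± 0.085, adjusted p = 1.42e-06). ZMAT3, an RNA-binding zinc finger protein, went from 25.7 and 23.7 to 45.3 and 45.2 CPM (0.87 ± 0.14, adjusted p = 0.00112). CDKN1A, the cyclin-dependent kinase inhibitor p21, went from 18.01 and 23.2 to 33.3 and 35.1 CPM (0.74 ± 0.17, adjusted p = 0.0297). PHLDA3, an inhibitor of AKT at membranes, went from 12.3 and 11.8 to 23.2 and 21.9 CPM, and SPATA18, a mitochondrial quality control factor, from 5.69 and 6.004 to 9.10 and 9.42 CPM. Both depleted libraries were above both controls in all 5.

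The 5 of 28 called higher stand against 0.446% of all genes. None was called lower, and the median was 0.20. At an unadjusted p under 0.05, 11 of the 28 were higher and 1 lower (all genes: 1855 of 19275 in either direction). Of the 28, 9 had a negative sign, the lowest being GDF15, a secreted stress signal, at 0.254 and 0.393 against 0.204 and 0.0923 CPM (-1.02 ± 0.79). FAS, another death receptor, stood at 7.03 and 6.17 CPM against 9.38 and 9.46 (adjusted p = 0.0937). MDM2, the ligase that degrades p53 and itself a p53 target, measured 219 and 202 CPM in the controls and 210 and 207 after depletion, a log2 difference of -0.011 ± 0.11. BBC3 and BAX, which promote cell death, had log2 differences of 0.0058 and 0.082. TNFRSF10B was called in every leave-out fit, and the count of called members was 2 without ZMYND8 library 3, 2 without ZMYND8 library 4, 2 without control 3 and 1 without control 4. Against the second-set controls, where 7.98% of all genes were called higher, it was 10.

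Among chromatin and transcription complexes, single subunits were called, against 0.747% of all genes tested. RBBP7 (ENSG00000102054, hg38 chromosome X, 16839283 to 16870362) is a histone-binding subunit that NuRD shares with other complexes. It measured 332 and 311 CPM in the controls and 497 and 497 after depletion, a log2 fold change of 0.63 ± 0.11 (adjusted p = 0.00295), and the call was lost only without control 4. Its paralog RBBP4 stood at 482 and 454 against 549 and 563 CPM (0.25 ± 0.085, adjusted p = 0.217). RBBP7 was the 1 called member of 15 NuRD genes, and CHD4, the remodelling ATPase, had a difference of 0.0020 ± 0.24. SUDS3, a subunit of the SIN3 histone deacetylase complex that also holds RBBP7, was lower, at 114 and 111 against 72.4 and 69.9 CPM (-0.66 ± 0.094, adjusted p = 0.000335). PHF10, a subunit of a SWI/SNF complex, was lower as well, at 94.8 and 101 against 66.6 and 62.1 CPM. Of 19 Integrator genes, C7orf26 (INTS15) was called, at 16.5 and 15.8 against 20.4 and 23.0 CPM (0.42 ± 0.099, adjusted p = 0.0358); it measured 19.4 CPM in the second-set controls, against which it was not called (adjusted p = 0.225). INTS13 had a log2 difference of -0.065.

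Other large rises came from genes of varied roles. INPP5D, the inositol phosphatase SHIP1 known from blood cells, measured 0.362 and 0.337 CPM in the controls and 2.49 and 2.86 after depletion (2.91 ± 0.36, adjusted p = 7.33e-05). MMP24, a membrane-anchored metalloproteinase, went from 0.254 and 0.112 to 1.84 and 1.57 CPM (3.09 ± 0.53). LGALS3BP, a secreted glycoprotein that binds galectins, went from 8.63 and 9.65 to 18.5 and 24.8 CPM (1.25 ± 0.20), and SELENOP, the selenium carrier protein, from 5.80 and 5.33 to 14.3 and 13.1 CPM (1.29 ± 0.28). TMEM64 went from 25.3 and 24.7 to 50.8 and 46.11 CPM (0.95 ± 0.14), with 31.5 CPM in the second-set controls. STS, steroid sulfatase, went from 5.65 and 3.76 to 9.92 and 10.5 CPM. BICDL1, which links cargo to dynein, went from 2.97 and 2.19 to 5.10 and 5.35 CPM. ACTA2, smooth muscle actin, went from 2.28 and 2.13 to 5.35 and 5.63 CPM; its gene model overlaps FAS on the opposite strand, and the strand setting of the counting was not given. SNAI2, a repressor of epithelial genes, went from 25.04 and 22.2 to 37.2 and 36.2 CPM (0.63 ± 0.10). It was the 1 call among 23 epithelial and mesenchymal genes tested, against 0.747% of all genes.

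The fall with the lowest p was that of PIGS (ENSG00000087111, hg38 chromosome 17, 28553383 to 28571794, minus strand), a subunit of the transamidase that attaches GPI anchors to proteins. It measured 95.8 and 95.9 CPM in the controls and 44.7 and 45.6 after depletion, 47.1% of control, with a log2 fold change of -1.09 ± 0.076 (adjusted p = 1.52e-09, the lowest of all genes tested). The second-set controls lay between 83.4 and 88.6 CPM and the first-set controls between 90.6 and 96.7, so the depleted libraries were below each of the 9 control libraries. Other subunits of the enzyme were not called: PIGT measured 78.5 and 76.6 against 81.0 and 91.9 CPM, and GPAA1 59.6 and 54.9 against 62.7 and 61.5. Of 29 tested genes of GPI anchor synthesis and transfer, PIGS was the 1 call (against 0.747% of all genes), and the median was 0.028.

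Further genes fell. APOLD1, an early response gene of endothelium, went from 11.6 and 14.1 to 6.45 and 5.26 CPM (-1.13 ± 0.15, adjusted p = 0.000117). BABAM1, a subunit of the BRCA1-A complex at DNA breaks, went from 31.2 and 33.8 to 16.7 and 14.7 CPM (-1.05 ± 0.20, adjusted p = 0.00872). GPCPD1, which breaks down glycerophosphocholine, went from 36.9 and 35.2 to 20.9 and 20.9 CPM (-0.79 ± 0.11). FAM114A2 went from 37.2 and 36.1 to 20.8 and 18.1 CPM, and SMIM14 from 13.2 and 13.6 to 7.92 and 7.06. MAP3K12, the kinase DLK that signals axon injury, went from 3.59 and 4.77 to 2.33 and 2.03 CPM. A pair of secreted signalling modulators were lower: SEMA3C, a guidance semaphorin, from 29 and 32.9 to 19.1 and 17.3 CPM, and BMPER, which binds bone morphogenetic proteins, from 5.69 and 6.28 to 3.59 and 2.86. RAB6A, a Golgi transport GTPase, went from 80.6 and 81.5 to 57.8 and 55.9 CPM (-0.51 ± 0.081, adjusted p = 0.000896).

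Among metabolic lists, single members were called, against 0.747% of all genes tested. TM7SF2, a sterol reductase, was the 1 call among 24 cholesterol genes, at 30.1 and 33.3 against 20.5 and 19.1 CPM (-0.68 ± 0.10); its model overlaps VPS51 on the same strand, which measured a mean of 104 CPM in the controls and 88.5 after depletion. Of 41 lysosome and autophagy genes, NEU1, the lysosomal sialidase, went down from 75.6 and 81.1 to 49.7 and 51.1 CPM, and CTSC, a cathepsin, up from 52.4 and 53.6 to 66.9 and 66.8. The NEU1 call needed ZMYND8 libraries 3 and 4 and control 4, and the CTSC call each of the 4 libraries.

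Genes of the integrated stress response, which cells turn on through the factor ATF4 when amino acids run short or proteins misfold, fell at 3 of 39 members. SLC7A11, the cystine importer (ENSG00000151012, hg38 chromosome 4, 138164097 to 138242349), measured 126 and 149 CPM in the controls and 54.6 and 60.2 after depletion, a log2 fold change of -1.26 ± 0.30 (adjusted p = 0.0357). JDP2, a repressor of AP-1 and ATF sites, went from 7.97 and 9.48 to 3.80 and 3.79 CPM (-1.20 ± 0.24, adjusted p = 0.0134). GPT2, which makes alanine and 2-oxoglutarate, went from 96.7 and 110 to 68.3 and 68.5 CPM (-0.59 ± 0.13, adjusted p = 0.0221). Both depleted libraries were below both controls in each.

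Most of the other members had lower values without passing the test. Of 39 listed genes, all tested, 3 were called lower (set against 0.301% of all genes) and 0 higher. At an unadjusted p under 0.05, 18 of them were lower and 1, ATF5, higher (all genes: 1855 of 19275 in either direction). The median was -0.42, 36 had a negative sign, and in 31 both depleted libraries lay below both controls (against 22.9% of all genes). ATF4 itself measured 973 and 1052 CPM in the controls and 681 and 693 after depletion (-0.56 ± 0.15, adjusted p = 0.069). MTHFD2, a mitochondrial folate enzyme, stood at 445 and 489 against 298 and 272 CPM (adjusted p = 0.0503), and DDIT4, a brake on mTORC1, at 148 and 230 against 112 and 99.3. ASNS, asparagine synthetase, stood at 8.01 and 9.31 against 4.53 and 4.80 CPM (-0.89 ± 0.27, adjusted p = 0.143), and DDIT3, the factor CHOP, at 7.68 and 10.2 against 6.37 and 5.86 (-0.54 ± 0.30). TRIB3 stood at 23.5 and 31.4 against 29.7 and 29.01 CPM.

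These genes also varied among controls. The summed level of the 39 genes was 4757 CPM in control 3 and 5319 in control 4, against 3742 and 3849 in the depleted libraries. The second-set controls summed to between 4204 and 4546 CPM, below the controls labelled for ZMYND8 and above the depleted libraries. Against them the median was -0.21, 6 of the 39 genes were called lower (against 5.85% of all genes) and 1 higher, and SLC7A11 and JDP2 were not called (adjusted p = 0.056 and 0.357). The first-set controls summed to between 5183 and 6547 CPM. The count of 3 calls became 0 without ZMYND8 library 3, 0 without ZMYND8 library 4, 1 (JDP2) without control 3 and 0 without control 4, and the median ranged from -0.51 to -0.27.

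**Figure D3:**
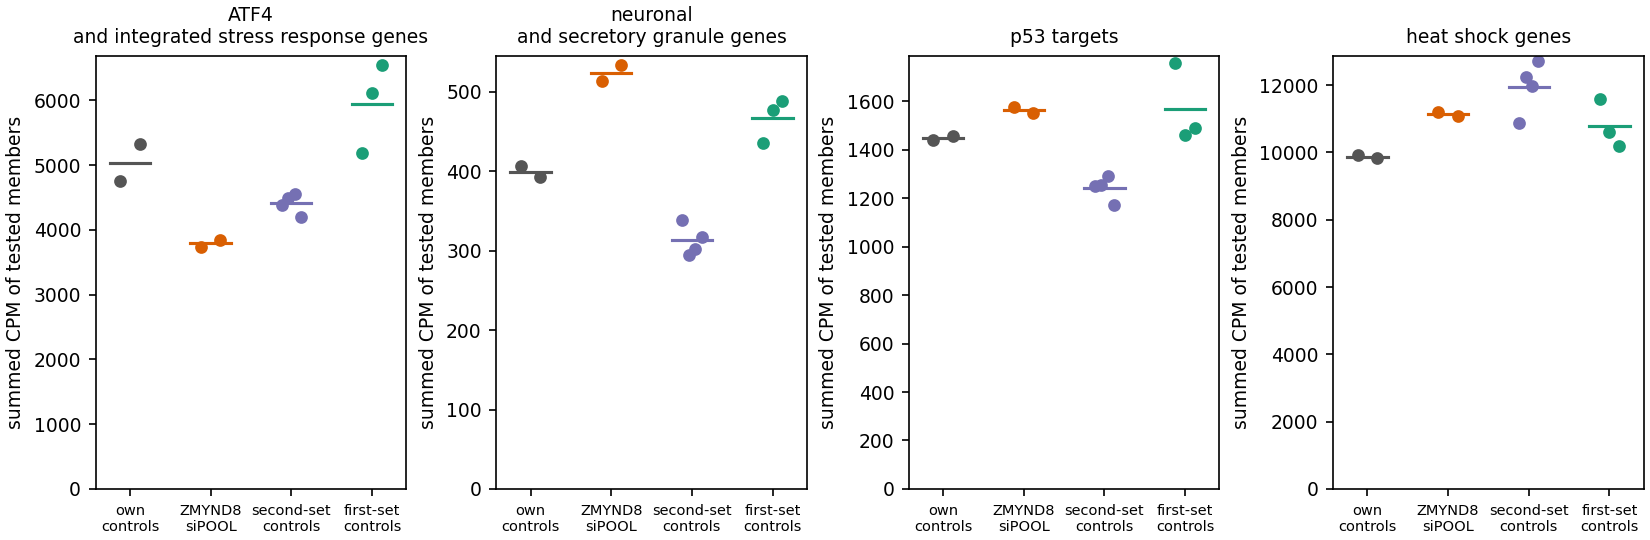
Summed CPM of the tested members of 4 gene lists in each library (points) with the group mean (bar), for the 2 controls labelled for ZMYND8, the 2 ZMYND8 siPOOL libraries, the 4 second-set and the 3 first-set controls; y axes start at 0. The stress response sum is lowest in the ZMYND8 libraries (3742 and 3849 CPM) and the neuronal sum highest (514 and 534 CPM), while the p53 and heat shock sums of the ZMYND8 libraries fall among those of the control sets.

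The promoters of the stress response list were searched for the ATF4 motif. ATF4 pairs with C/EBP factors on a composite element with the letters TGATGNAA, searched on both strands in RefSeq promoters (GRCh38.p14, 250 bases before to 50 after the start). Of the 39 genes 31 had a promoter in the table. Of the 31, 8 (25.8%) held the element, against 3.67% of 27305 promoters and 1.70% of the 11770 of tested genes. The list was chosen as genes turned on through ATF4, so this share says nothing about the depletion. Among called genes with a promoter, 2 of 46 lower ones (4.35%) and 1 of 60 higher ones (1.67%) held the element. The windows below are those of the stress response list, and that of the tRNA synthetase AARS1, that lie wholly before the start; CARS1, with the element 2 bases before it, and the others reach past it. They give it in capitals with 20 bases on each side, 5′ to 3′ on the gene's strand; TTGCATCA is the element read on the other strand. They lie at chr7:97872449-97872496 (ASNS, minus strand), chr15:40953242-40953289 (CHAC1, plus), chr1:212565196-212565243 (ATF3, plus), chr16:56931946-56931993 (HERPUD1, plus), chr19:48755450-48755497 (FGF21, plus) and chr16:70289666-70289713 (AARS1, minus).
ASNS: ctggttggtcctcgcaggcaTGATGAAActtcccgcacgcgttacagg
CHAC1: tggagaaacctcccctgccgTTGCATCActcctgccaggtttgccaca
ATF3: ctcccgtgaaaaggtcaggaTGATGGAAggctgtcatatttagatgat
HERPUD1: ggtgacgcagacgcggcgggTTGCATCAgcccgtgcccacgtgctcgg
FGF21: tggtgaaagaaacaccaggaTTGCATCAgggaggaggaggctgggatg
AARS1: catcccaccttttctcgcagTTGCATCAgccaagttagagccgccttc

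The element began 68 bases before the start in ASNS, 209 in CHAC1, 191 in ATF3, 176 in HERPUD1, 54 in FGF21 and 187 in AARS1. CHAC1, which degrades glutathione, measured 7.10 and 14.1 CPM in the controls and 3.51 and 3.79 after depletion, ATF3, a stress-induced factor, 28.6 and 41.9 against 23.1 and 20.5, and HERPUD1, a factor in disposal of misfolded proteins, 50.3 and 53.2 against 45.3 and 45.2. None of the 3 was called. FGF21, a stress hormone, was near 0 in the 4 libraries, from 0.0362 to 0.0561 CPM. The median log2 difference was -0.41 in the 8 with it and -0.45 in the 23 without, and the promoter of JDP2 did not hold these letters. Among 16 promoters of cytosolic tRNA synthetases, which charge tRNAs with amino acids, 6 (37.5%) held the element. All 6 of these genes had a negative log2 difference (median -0.27), AARS1 at 328 and 368 against 246 and 276 CPM among them. Of the 10 without the element, 5 did (median -0.0067). CARS1 is among these 6 and also among the 8 of the stress response list. Of 21 amino acid transporter promoters 4 held the element: 3 of these 4 genes and 10 of the 17 without it had a negative log2 difference. The search was planned for the stress response list only. None of the 20 tested synthetase genes was called. At an unadjusted p under 0.05, 6 were lower (all genes: 1855 of 19275 in either direction).

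The cyclic AMP element TGACGTCA, which reads the same on both strands, was present in 3 of 25 promoters of the neuronal list (12%), against 1.98% of all promoters and 3.23% of those of tested genes. The 3 are shown in capitals as above, because they belong to granule and vesicle genes: CHGA, chromogranin A, at chr14:92923076-92923123 (plus strand), SYN1, synapsin I, at chrX:47619989-47620036 (minus) and VGF, a neuropeptide precursor, at chr7:101165621-101165668 (minus).
CHGA: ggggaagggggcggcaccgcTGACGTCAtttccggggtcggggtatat
SYN1: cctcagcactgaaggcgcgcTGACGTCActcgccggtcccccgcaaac
VGF: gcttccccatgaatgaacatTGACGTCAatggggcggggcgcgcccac

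None of these 3 was called. CHGA stood at 0.834 and 1.07 CPM against 1.51 and 1.52, SYN1 at 0.218 and 0.112 against 0.530 and 0.277, and VGF at 0.507 and 1.40 against 0.530 and 0.554. The element was thus found in none of the called neuronal genes that had a promoter in the table. CHGB, CPLX1, SLC7A11 and GPT2 had no entry among the promoters searched.

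Amino acid transporters had mixed signs, 12 positive and 15 negative of 27 tested. SLC7A11 was among the negative ones and was the 1 call (against 0.747% of all genes). SLC38A1, a glutamine transporter, stood at 406 and 469 against 331 and 337 CPM (adjusted p = 0.131), and SLC1A3, a glutamate transporter, at 59.2 and 56.1 against 77.7 and 85.9 (adjusted p = 0.0838). None of the 22 serine and one-carbon genes tested was called. Chaperones had higher values without a call. Of 30 endoplasmic reticulum genes 7 were higher at an unadjusted p under 0.05 (all genes: 1855 of 19275 in either direction). HSPA5 (BiP) stood at 226 and 253 against 320 and 369 CPM. Of 21 heat shock genes 18 had a positive sign (median 0.16). The sign of both lists turned with the controls. Against the second-set controls the medians were -0.079 and -0.076, with HSPA5 at 403 CPM and HSPA8, the constitutive HSP70, at 2584 CPM in those controls against 1737 and 1654 CPM in the controls labelled for ZMYND8.

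**Figure D4:**
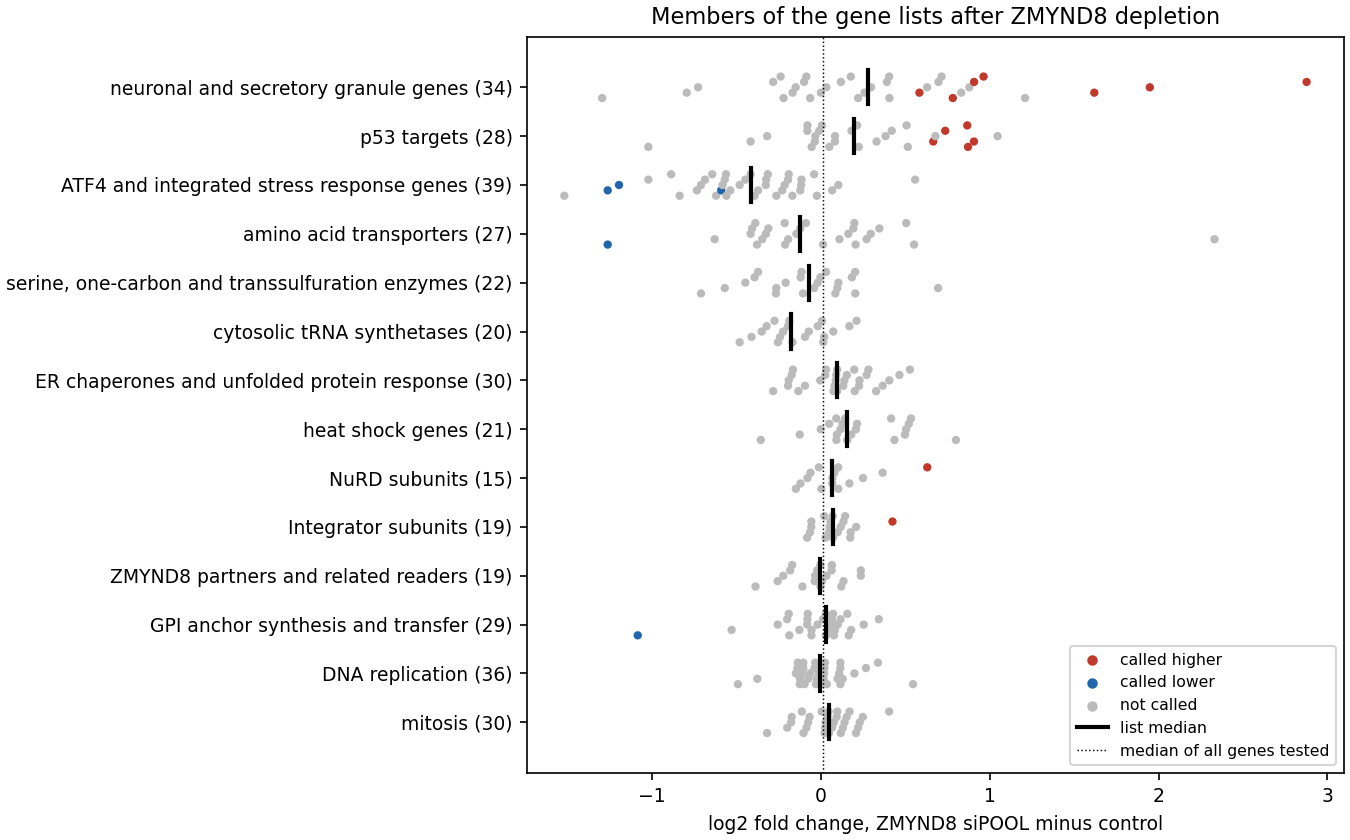
Log2 fold change (ZMYND8 siPOOL minus control) of each tested member of 14 gene lists, with the number tested in parentheses; red and blue points are genes called higher and lower, grey points were not called, bars are list medians and the dotted line is the median of all tested genes (0.012). The stress response list has the lowest median (-0.42) and the neuronal list the highest (0.28) of those drawn.

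Other lists held no call. None was found among 36 DNA replication genes (median -0.0091), 30 mitosis genes (0.046), 29 genes of double-strand break repair (-0.071), 28 interferon response genes (0.094), 34 genes of glycolysis and hypoxia (0.0093), 32 immediate early genes (-0.034), 42 HOX and retinoic acid genes (0.022) or 33 histone genes (-0.041). At an unadjusted p under 0.05 these lists held 2 higher and 2 lower, 1 and 1, 1 and 2, 2 and 0, 2 and 2, 5 and 3, 3 and 1, and 2 and 0 genes, in the same order. Over all tested genes, 1855 of 19275 passed that threshold in either direction.

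Among genes not typed as protein-coding in GENCODE 29, AL139243.1 with no type among them, 5 were called higher and 6 lower. Protein-coding genes made up 13753 of the 19275 genes tested (71.4%) and 92.4% of the calls. Genes of other types were thus called less often than protein-coding ones. SNHG16, a host gene of small nucleolar RNAs, measured 298 and 246 CPM in the controls and 422 and 452 after depletion (0.68 ± 0.089, adjusted p = 0.000108). AC091182.1 went from 8.74 and 9.43 to 17.2 and 17.7 CPM (0.94, adjusted p = 0.00239), and the others named by rule were AL139243.1 and AC008736.1 among the higher and AC008443.1 among the lower. TMCC1-AS1, antisense to TMCC1, went from 22.3 and 24.8 to 11.9 and 10.9 CPM (-1.05 ± 0.11, adjusted p = 2.01e-06), SP2-AS1 from 2.32 and 1.63 to 0.816 and 0.462, and MCM3AP-AS1 from 35.1 and 37.2 to 23.1 and 25.6. The coding partners at the last 2 loci were not called, SP2 at a log2 difference of 0.037 and MCM3AP at 0.095. Without a stated strand setting, reads of overlapping partners cannot be told apart in these counts.

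The response to ZMYND8 depletion was next set beside that to INTS13 depletion, which shares no library with it and in which 2459 genes (12.8%) were called. INTS13 libraries belong to the second set, so a difference between depletions and one between sets cannot be told apart. Of the 144 genes, 76 were also called after INTS13 depletion (52.8% of the ZMYND8 calls and 3.09% of the INTS13 calls), 70 of them in the same direction, and 113 of the 144 had the same sign, as did 54.9% of all tested genes. The difference between the depletions was called at 541 genes (2.81%), 45 of the 144 among them. PIGS was one: its log2 fold change after INTS13 depletion was 0.083, with a difference of -1.17 (adjusted p = 3.51e-08). Of the 5 called p53 targets, 4 differed: CDKN1A was 2.60 and SPATA18 1.89 after INTS13 depletion (differences of -1.86 and -1.23, adjusted p = 9.93e-06 and 0.000633), and the differences of PHLDA3 (-1.496) and TNFRSF10B (-0.49) were also called. ZMAT3 was 0.89 after INTS13 depletion, with a difference of -0.017 ± 0.18 (adjusted p = 0.983). SLC7A11 was 0.28 and JDP2 0.32 after INTS13 depletion, and both differences were called (adjusted p = 0.0247 and 0.0083). Their falls were not particular to ZMYND8 depletion. SLC7A11 was negative in each first-set depletion, from -1.34 (ZNF608) to -0.56 (TSPYL2), and positive after HDGF (0.34) and ZNF655 (0.19) depletion. JDP2 was negative in every other depletion but that of INTS13, from -0.82 (HDGF) to -0.165 (ZNF655). SYP (0.54), RBBP7 (0.60) and TMCC1-AS1 (-1.40) were called after INTS13 depletion with no called difference from ZMYND8 depletion.

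ZNF655 depletion gave 2208 calls (11.5%), of which 82 were among the 144 (56.9% of the ZMYND8 calls, 3.71% of those of ZNF655), 76 in the same direction. The difference was called at 332 genes (1.72%), 32 of the 144 among them. Neuronal genes also rose after ZNF655 depletion: SYP by 1.60, with a called difference of -0.69 (adjusted p = 0.00284), CHGB by 2.29, SCG3 by 2.33 and OLFM1 by 2.33, with no called difference. PIGS had -0.041 (difference -1.05, adjusted p = 1.2e-06) and MAP3K12 rose by 0.87 (difference -1.79, adjusted p = 0.000132). ZNF655 and INTS13 were measured against the same controls, so their values are given side by side only. The limit stated for INTS13, that depletion and set cannot be told apart, holds for ZNF655 too.

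ZNF687, the partner of ZMYND8 in its zinc finger complex, gave 49 calls on depletion (0.254%). Of these 7 were among the 144, 6 in the same direction, and 120 of the 144 had the same sign as after ZNF687 depletion, against 54.9% of all tested genes. The difference between the depletions was called at 17 genes (0.0882%), with 1277 at an unadjusted p under 0.05. Of the 17, 8 were ZMYND8 calls: PIGS, GPCPD1, CHGB, INPP5D, TNFRSF10B, LGALS3BP, SPOPL and EFR3A. PIGS measured between 92.7 and 99.8 CPM after ZNF687 depletion, and its difference was -1.13 (adjusted p = 3.46e-07). TNFRSF10B measured 57.9 to 60.4 CPM there, with a difference of 0.77 (adjusted p = 0.00213). The shared calls included SEMA3C, at -0.75 after ZNF687 depletion, BMPER (-0.93), SNHG16 (0.46) and RBBP7 (0.46). SMARCD2, a SWI/SNF subunit, fell by 1.49 after ZNF687 depletion and had a log2 difference of -0.11 after ZMYND8 depletion (difference 1.38, adjusted p = 8.25e-07). ZNF687 libraries belong to the first set, so a difference between depletions and one between sets cannot be told apart.

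**Figure D5:**
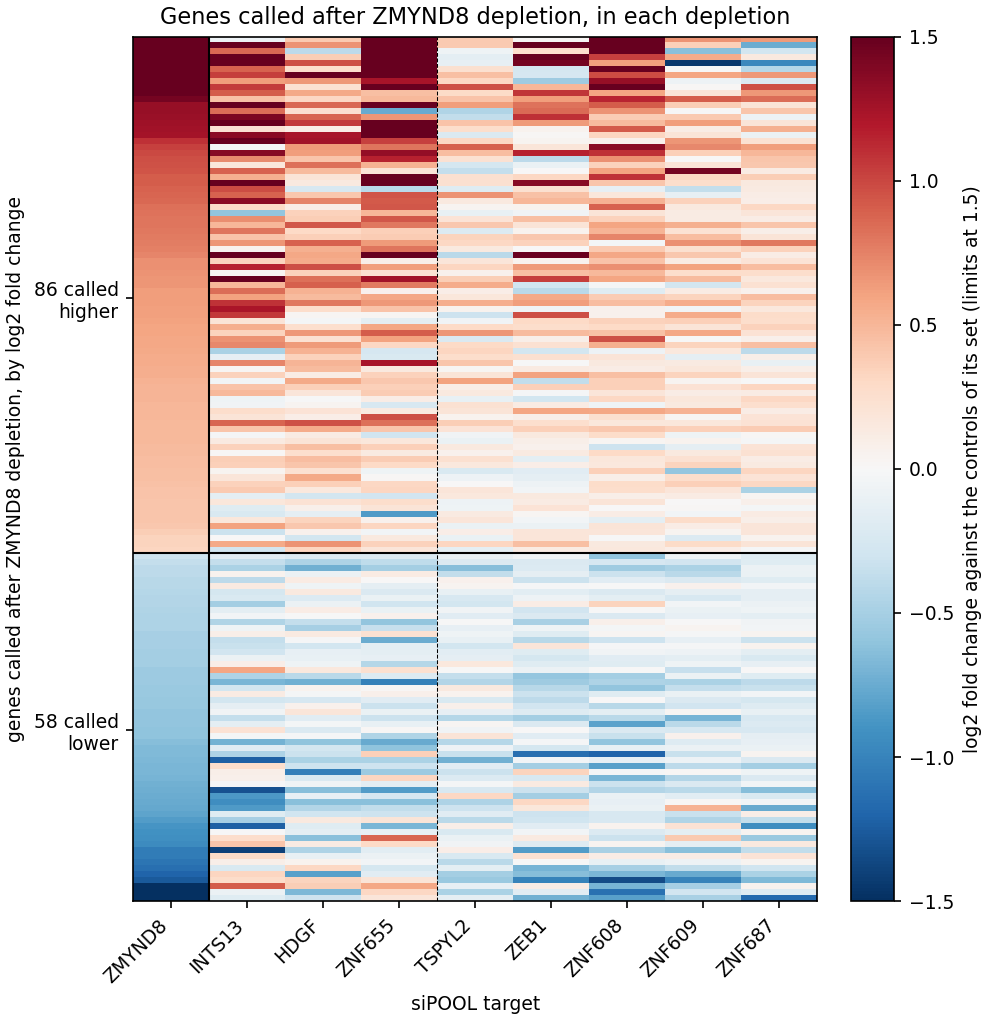
Log2 fold change of the 144 genes called after ZMYND8 depletion (rows, in order of that change) in each of the 9 depletions (columns), each against the controls of its set; colours are limited at 1.5 in either direction, and the dashed line separates second-set from first-set depletions. Of the 144 rows, 49 keep the sign of the first column in all 8 other columns, against 5.34% of all tested genes.

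Across the 8 other depletions of the series, 49 of the 144 genes had the sign of the ZMYND8 change in all 8 (34%, against 5.34% of all tested genes), and none had it in fewer than 3 (against 16.5% of all tested genes). The 86 genes called higher had medians of 0.16 to 0.49 in those depletions, and the 58 called lower had medians of -0.22 to -0.15, against medians of all tested genes between -0.016 and 0.016. The 3 second-set depletions share their controls with one another, as do the 5 of the first set, so these are not 8 independent values. The neuronal rises were also seen after ZNF608 depletion, with CHGB at 2.18, SCG3 at 1.76, CPLX1 at 1.31 and SYP at 1.09. After ZNF687 depletion the same genes were at -0.27, -0.42, -0.21 and 0.37. INPP5D was at 3.90 after INTS13 and 3.26 after ZNF655 depletion, with no called difference from ZMYND8 depletion, and at -0.75 after that of ZNF687. MMP24 was at 2.35 after ZNF655 and 2.15 after ZNF608 depletion, but at -0.081 after that of INTS13. LGALS3BP was between 1.24 and 1.91 in the second-set depletions and between -0.22 and 0.32 in those of the first set.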

How the data were processed

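The authors deposited 1 table of raw read counts per gene, described as taken before duplicate removal, with a column for each of 35 total RNA libraries. Per the submitters' processing notes, reads passed FastQC, cutadapt and STAR on hg38; versions, the counting tool, the annotation and the strand setting are not given in the sources used here. Labels gave 15 groups. From the counts, genes were filtered with filterByExpr by group, TMM-scaled and fitted as 15 group means in 1 edgeR quasi-likelihood model (edgeR 4.0.16, R 4.3.3; residual df 20, prior df 5.87, median BCV 0.123, where BCV is edgeR's biological variation between libraries), so that groups of 2 shared the spread of all libraries. ZMYND8 against its own controls, and its differences from the INTS13, ZNF687 and ZNF655 effects, were contrasts; genes with a two-sided Benjamini-Hochberg adjusted p under 0.05 over 19275 genes were called. SE are those of the log2 fold changes. Replicates of a group differed by more than counting noise (chi-square per degree of freedom 3.38 in the controls and 4.85 in the ZMYND8 libraries). Identifiers were matched to GENCODE 29 (58478 found, 96.4%) for positions and types, 45602 of them at the same position.

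Genes were named by a rule: ZMYND8, the 12 protein-coding calls with the largest change in each direction whose groups did not overlap and whose log2 CPM averaged 1 or more, the called list members (6 per list at most, lowest adjusted p first), the 4 non-coding calls with the lowest adjusted p in each direction, and ATF4, DDIT3, ASNS, ZNF687, ZNF592, ZNF532, CHD4 and INTS13. Other genes were named after their values were seen, and some results are not reported here. The members, lists and tests were chosen with earlier results of these data known. Alternatives were other filters, DESeq2 1.42.0, its scaling, other sets of libraries, second-set controls, a replicate block and leaving out each library. Promoter entries of 1 chromosome and of other lengths were left out. The procedure was also run on simulated counts, drawn with the fit's own spread and no differences between control sets. That run cannot give the rate of false calls in these data.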

Additional observations from a re-analysis of the deposited data

How the results depend on the processing

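The 144 calls became 229 with a CPM of at least 1 in 2 of the 4 libraries, 326 with DESeq2 (155 higher, 171 lower, against 86 and 58), 1553 with the 4 libraries alone, 69 without the glucose-starved libraries and 2666 (13.8%) against second-set controls, and 21 to 58 on leaving out 1 library. The number with a called difference from INTS13 depletion (541) became 349 with no filter, 862 with DESeq2, 258 without the starved libraries and 215 to 231 on leave-out. For ZNF687 the 17 became 85, 69 and 10, and 8 to 11 on leave-out; for ZNF655 the 332 became 699 with DESeq2, 141 without the starved libraries and 96 to 112 on leave-out. The log2 fold change of ZMYND8 was -0.96 without the starved libraries (adjusted p = 0.0514) and -0.97 to -0.91 on leave-out. The cause of these shifts was not tested. Differences between depletions were not run with the 4 libraries alone or with second-set controls. With no filter 149 genes were called (77 higher, 72 lower), and 65 of the 144 calls were lost. All 144 genes kept their direction with no filter, RLE scaling, DESeq2 and leave-outs. As the groups of all 144 did not overlap, this could hardly come out otherwise. Against second-set controls 142 of 144 kept it, and 119 were called.

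Values near 0 changed sign. CHD4 had -0.020 with no filter, -0.017 with the CPM filter, -0.0100 with RLE scaling, -0.0091 with DESeq2, -0.024 with the 4 libraries alone, -0.014 without the starved libraries, -0.28 with second-set controls and -0.090 to 0.089 on leave-out. ZNF687 had -0.042 to 0.16 on leave-out, and INTS13 had 0.091 with second-set controls.

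A replicate block gave 136 calls, 133 of them among the 144, and -0.94 for ZMYND8 (adjusted p = 0.0154); the differences from INTS13, ZNF687 and ZNF655 depletion had 490, 16 and 292 calls. The differences of number 4 minus number 3 in the depleted and the control libraries correlated at 0.0757 over 12795 genes. With 1 such difference a group, this cannot settle whether the numbers pair the libraries. With 2 libraries a group, 126 of the 144 calls were lost without 1 library or another.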
